A study of Mus musculus with 13 samples.

Results

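Interferon gamma (Ifng) and 9 genes that it is known to induce were followed through 13 single-cell RNA libraries of mouse liver: the transcription factor Irf1, the guanylate-binding proteins Gbp2, Gbp3, Gbp4, Gbp5 and Gbp7, and the immunity-related GTPases Iigp1, Igtp and Irgm1. These 10 genes were taken by name from 55353 listed genes, with earlier results of these data known. Ifng was read in T cells and in NK or ILC1 cells (natural killer and group 1 innate lymphoid cells), and its targets in liver sinusoidal endothelial cells (LSEC), Kupffer cells, other macrophages, the conventional dendritic cells cDC1 and cDC2, and biliary epithelial cells (BEC), which gave 56 pairs of a gene and a class. Barcodes with at least 1500 UMIs (unique molecular identifiers, counts of captured RNA molecules) were taken as cells, in all 95563, of which 87083 were in the 12 libraries of the diet course.

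The mice were male C57BL/6J, 6 to 12 weeks old, on a diet with 0.1% DDC, a compound that injures bile ducts. Livers were taken at steady state (D0) and after 3, 5, 9, 19 and 25 days of diet, each with 2 ways of isolating cells. Protocol A pooled sorts of live singlets, of cells with retinoid autofluorescence, of Epcam+, Pdpn+ or Cd45+ cells and of Lyve-1+ as well as Lyve-1- Cd31+ cells, whereas protocol B pooled live cells of a stellate cell preparation with Cd45+ Itgax+ Cd64-, Epcam+ and Cd3e+ Lyve-1- sorts. A recovery library (STOP, protocol B) came from 18 days of diet and 7 days without it. D3 and D5 were read as onset (4 libraries) and D9, D19 and D25 as progression (6 libraries), both against the same 2 libraries at D0. The labels do not tie mice to libraries, so p-values measure the spread between libraries, and the protocols, which also differ in index kit, entered each fit as a term. The library D19 B carries D18 in another of its labels, and STOP carries D19 in another of its own. Total counts were 29307190 to 108602421 UMIs per library and cells 1541 to 14764 per library, a pair of libraries shared at most 49 barcodes, and classes with at least 20 cells in a library were read. From 4.00% to 24.5% of a library's cells stayed in clusters without a name, and doublets were not removed. Cells at D0 were shallow, for instance with a median of 2700 (D0 A) and 2171 UMIs (D0 B) in LSEC against 3440 to 8749 later. Intervals and shares cover counting error only, and levels of different genes were not compared.

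Interferon gamma is secreted by activated NK cells, ILC1 and T cells and binds a receptor of Ifngr1 and Ifngr2 that most liver cells carry. The signal reaches GAS elements in target promoters, and Irf1, itself such a target, binds ISRE elements and carries the response on. The guanylate-binding proteins and the immunity-related GTPases are families of GTPases that assemble on the vacuoles of intracellular microbes. Irgm1 regulates the other immunity-related GTPases. In the liver these genes serve as a readout of the cytokine's action, although type I interferons induce many of them too.

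Promoter sequences were read from RefSeq (GRCm38.p6), from 250 bases before to 50 bases after each start site, for the 8 members with an entry. Both strands were searched for the GAS letters TTCNNNGAA and the ISRE core (GAAA, any 2 bases, GAAA). GAS was found in 8.30% and the ISRE core in 3.44% of all 32851 windows of 300 bases, and at least one of them in 11.3%. Each of the 8 members held at least one of them at its first start site, while the second start sites of Irf1 and Gbp3 held neither. The stretches below are shown because they hold the motif next to the start site, in capitals, 5′ to 3′ on the gene's strand. An ISRE core on the opposite strand shows a pair of TTTC runs.
Irf1: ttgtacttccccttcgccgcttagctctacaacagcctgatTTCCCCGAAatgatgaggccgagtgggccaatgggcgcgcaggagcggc
Gbp2: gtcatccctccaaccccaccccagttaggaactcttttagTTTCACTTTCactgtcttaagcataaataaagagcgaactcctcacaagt
Gbp3: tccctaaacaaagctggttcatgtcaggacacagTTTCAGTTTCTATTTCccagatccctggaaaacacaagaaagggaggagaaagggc
Gbp5: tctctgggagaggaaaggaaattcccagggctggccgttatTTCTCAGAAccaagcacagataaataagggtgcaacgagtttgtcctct
Gbp7: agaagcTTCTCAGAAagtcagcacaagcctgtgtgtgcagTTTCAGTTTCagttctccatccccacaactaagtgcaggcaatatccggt
Igtp: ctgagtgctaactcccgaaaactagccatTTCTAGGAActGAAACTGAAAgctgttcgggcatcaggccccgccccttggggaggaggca
Irgm1: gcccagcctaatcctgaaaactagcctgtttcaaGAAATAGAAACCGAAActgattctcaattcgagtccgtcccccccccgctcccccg

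The Irf1 stretch lies at chr11:53769883-53769972 (plus strand) and holds a GAS element that begins at position -90 from the start site. The Gbp cluster on chromosome 3 gave the stretches at chr3:142620564-142620653 for Gbp2, chr3:142559965-142560054 for Gbp3, chr3:142496841-142496930 for Gbp5 and chr3:142530243-142530332 for Gbp7, all on the plus strand. Gbp2 held an ISRE core alone, Gbp3 a pair of overlapping ISRE cores, Gbp5 a GAS element and Gbp7 one of each. Gbp5 had a further GAS element at -245 and an ISRE core at -165, and Gbp7 a further GAS element at -106, outside the stretches shown. Igtp (chr11:58199482-58199571, plus strand) held both motifs side by side, and Irgm1 (chr11:48871395-48871484, minus strand) a pair of overlapping ISRE cores. The promoter of Ifng held 1 GAS element, at -249. These are matches of letters, not measured binding.

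Ifng RNA was found in lymphocytes and was higher in NK or ILC1 cells than in T cells. T cells of the diet course held 29.7 to 364 CPM of Ifng (UMIs of the gene per 1000000 UMIs of the class in a library) and NK or ILC1 cells 155 to 990 CPM, against at most 7.39 CPM in LSEC, Kupffer cells, other macrophages, cDC1, cDC2 and BEC. Both classes reached 20 cells in 8 libraries, and NK or ILC1 cells exceeded T cells in 8 of 8, with means of 406 and 166 CPM. The difference within a library was 1.41 ± 0.99 on the log2(CPM + 1) scale (SD, n = 8; exact sign-flip permutation test, two-sided, p = 0.007812, the smallest this design allows). With cells that hold RNA of another lineage left out, 4 of 5 libraries were higher in NK or ILC1 cells (exact sign-flip permutation p = 0.1875). With each cell thinned to 1500 UMIs, 19.4% to 50% of NK or ILC1 cells had an Ifng UMI (median 25.4%) and 4.31% to 28.5% of T cells (median 10.8%). In classes that should lack the gene, the share read here as background was 0% to 1.22% in LSEC and 0% to 0.735% in B cells, and its upper end lay at 2.86% in large-vessel endothelial cells, 2.38% in neutrophils and 2.33% in Kupffer cells. Without thinning, the medians were 46.4% in NK or ILC1 cells, 19.9% in T cells, 0.0476% in LSEC and 0.509% in B cells.

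Among T and NK subsets, the subsets reached 20 cells in different libraries, so their levels were not put in order. NK-like cells held 179 to 652 CPM of Ifng (6 libraries) and ILC1-like cells 154 to 1079 CPM (5 libraries). In the 2 libraries with both, ILC1-like cells were the higher, at 1079 against 652 CPM in D0 B and 350 against 239 CPM in D19 B. T cells of clusters named neither CD4, CD8, gamma-delta T17 nor cycling (other T cells) held 73.1 to 595 CPM. The receptor gamma-chain genes Trgv2 and Trgc2 were among the leading genes of each of their clusters. Il4 and Cd40lg were among those of the larger ones. The alpha-chain segment Traj18 was among those of the largest, and the delta-chain gene Trdc among those of the smallest. Trac, Trbc1 and Trbc2, genes of the alpha and beta chains, were among the markers of each of these clusters. Cycling T cells held 42.1 to 401 CPM, CD8 T-like cells 21.6 to 122 CPM and CD4 T-like cells, which had no D0 library, 28.3 to 206 CPM. Gamma-delta T17-like cells, a subset better known for interleukin-17, were at 251 CPM in D0 B (15 UMIs in 23 cells) and at 2.81 to 34.0 CPM in the other 4 libraries, with 1 UMI each at D9 B and D19 B. The ranges overlapped, and these levels were not tested against each other.

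In T cells, Ifng fell between steady state and progression. It was at 320 CPM in D0 A and 364 CPM in D0 B. At onset it was at 175 (D3 A), 97.1 (D3 B) and 68.7 CPM (D5 B), and in progression at 112 (D9 A), 29.7 (D9 B), 126 (D19 B), 39.3 (D25 A) and 130 CPM (D25 B), while D5 A and D19 A had fewer than 20 T cells and were left out. Every later library lay below both D0 libraries. The protocol A libraries were small, with 46 (D0 A), 22 (D3 A), 27 (D9 A) and 31 T cells (D25 A). T and NK or ILC1 cells of D25 A together held 4 Ifng UMIs. In edgeR's quasi-likelihood test the log2 fold change of progression against D0 was -2.02 ± 0.45 (SE; adjusted p = 0.0202, with 3.17% of 10812 genes called in T cells), and of onset against D0 -1.69 ± 0.52 (adjusted p = 0.170; 0.277% of genes called), which was called without D0 A (-2.12, adjusted p = 0.0233). The call rested on D0 B: without it the log2 fold change was -1.41 (adjusted p = 0.662), and with at least 3000 UMIs per cell it was -1.55 (adjusted p = 0.147). In protocol A alone progression gave -1.82 (adjusted p = 0.144) and in protocol B alone -2.20 (adjusted p = 0.0252), where onset was called too (-2.30, adjusted p = 0.0493). Adding 4 T and NK clusters of 3486 cells that stayed unnamed gave -1.89 (adjusted p = 0.0526).

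The makeup of the T cells moved with this fall. Of T cells in D0 B, 48.8% belonged to the other T cells, against 9.34% to 17.3% in the protocol B libraries of progression. Within that subset Ifng was at 595 CPM in D0 B and at 73.1 (D9 B), 147 (D19 B) and 210 CPM (D25 B) in progression. CD8 T-like cells, 46.1% of T cells in D0 B, were at 118 CPM there and at 21.6 to 122 CPM in progression, so that D0 B lay within their range. CD4 T-like cells reached 20 cells in no D0 library. How much of the fall lies with makeup was not tested.

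In NK or ILC1 cells, Ifng was at 476 (D0 A) and 990 CPM (D0 B), at 515 (D3 A), 467 (D5 A) and 222 CPM (D5 B) at onset, and at 203 (D9 A), 346 (D9 B), 344 (D19 B) and 155 CPM (D25 B) in progression. All 4 progression libraries lay below both D0 libraries, whereas at onset D3 A lay above D0 A, and D3 B, D19 A and D25 A had too few cells. The log2 fold change of progression against D0 was -1.63 ± 0.44, which edgeR's test did not call (adjusted p = 0.109; 0.285% of 5970 genes called). Onset against D0 gave -0.77 ± 0.53 (adjusted p = 0.952; 0% of genes called), and was positive without D0 B (0.10) or D5 B (0.06). The progression change was called under some alternatives: without D0 A it was -2.26 (adjusted p = 0.0028), without D5 B -1.72 (adjusted p = 0.0336) and with at least 3000 UMIs per cell -2.93 (adjusted p = 0.0061), but without D0 B it was -0.34 (adjusted p = 0.909). ILC1-like cells went from 1079 CPM in D0 B to 154 to 350 CPM in progression, and NK-like cells from 475 (D0 A) and 652 CPM (D0 B) to 179 (D9 A) and 239 CPM (D19 B). The ILC1-like cells pooled a cluster of 1376 cells and one of 343 cells, the smaller with Ifng among its leading genes. The weights of these clusters by stage are not given here. The kinds of cells sampled differed, with 97.7% NK-like cells in D0 A and 77.9% to 96.1% ILC1-like cells in those protocol B libraries of D0, D9, D19 and D25. Progression against onset gave no call in either class (0% of genes called in both).

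**Figure D1:**
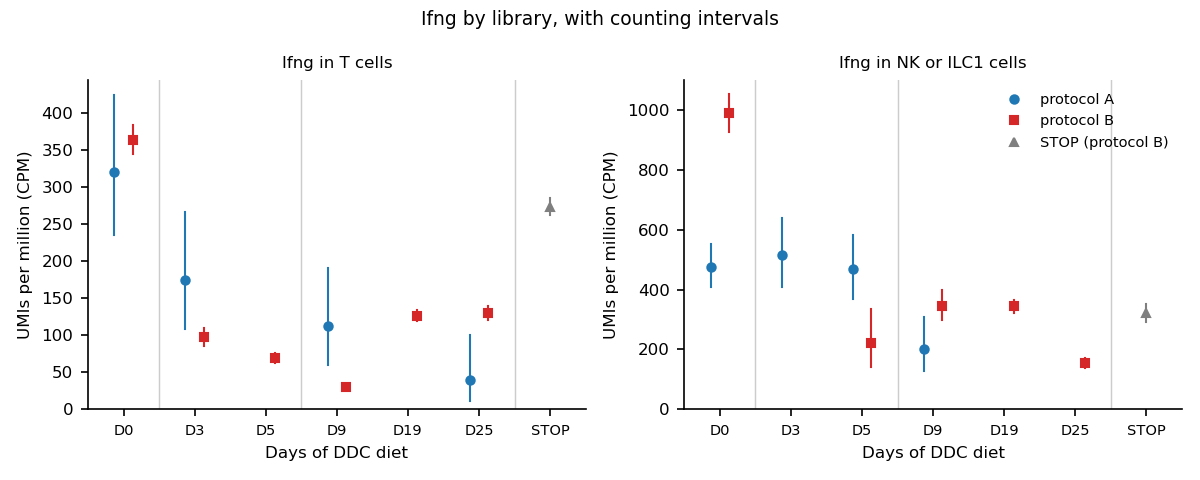
Ifng level in CPM by days of DDC diet, in T cells (left) and NK or ILC1 cells (right); each point is 1 library with at least 20 cells, circles are protocol A, squares protocol B, the triangle the STOP library, and bars are 95% counting intervals. In T cells both D0 libraries, at 320 and 364 CPM, sit above the later diet libraries, and STOP is at 273 CPM.

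Among the 8 classes that were fitted, the targets differed in where they were read most. Iigp1, the best-studied GTPase of the immunity-related family, had its highest mean in LSEC at 1334 CPM, followed by Kupffer cells at 377 CPM and cDC2 at 99.3 CPM. LSEC exceeded Kupffer cells by 1.83 ± 0.50 on the log2(CPM + 1) scale in 12 of 12 libraries, and Kupffer cells exceeded cDC2 by 2.09 ± 0.77 in 11 of 11 (SD; exact sign-flip permutation tests, adjusted p = 0.0114 and 0.0137 over 70 neighbouring pairs). Irf1 was also highest in LSEC, at 425 CPM against 196 CPM in NK or ILC1 cells, the next class (9 of 9 libraries, exact sign-flip permutation test, adjusted p = 0.0228). Irgm1 stood at 108 CPM in LSEC and 43.0 CPM in Kupffer cells (12 of 12 libraries, exact permutation test, adjusted p = 0.0114).

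The guanylate-binding proteins had other orders. Gbp2 and Gbp3 had their highest means in Kupffer cells, at 47.0 and 56.8 CPM. For Gbp3 the step to other macrophages, at 33.2 CPM, passed the test (11 of 12 libraries, exact permutation test, adjusted p = 0.0137), while for Gbp2 the step to other macrophages at 37.4 CPM did not (10 of 12, exact permutation test, adjusted p = 0.0564). Gbp7 held 96.3 CPM in NK or ILC1 cells, 92.4 CPM in LSEC and 87.1 CPM in T cells, neighbours that did not pass. Gbp5 was at 23.0, 22.9 and 21.9 CPM in NK or ILC1 cells, Kupffer cells and LSEC. Of these 8 classes, Gbp4 was highest in NK or ILC1 and T cells, at 13.2 and 11.6 CPM. Outside them, large-vessel endothelial cells had means of 12.3 CPM of Gbp4 and 28.0 CPM of Gbp5. Mature dendritic cells had 30.3 CPM of Gbp5. cDC1 had the lowest mean of the 8 classes for Irf1, Gbp2, Gbp3 and Gbp7, at 57.3, 5.35, 2.07 and 8.35 CPM. Of the 70 neighbouring pairs over all 10 genes, 15 passed at 0.05, and 7 with at least 3000 UMIs per cell.

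Igtp was near the detection limit, with 238 UMIs in the 6 target classes of all 12 libraries together and a mean of at most 1.12 CPM in any of them. Its neighbour Irgm2, which shares exon bases with it (8.01% of the exon bases of Igtp), had means of 3.65 to 31.2 CPM in the same classes. Reads that fit both genes could not be told apart, and the same holds for other near-identical stretches of the Gbp and Irg families.

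**Figure D2:**
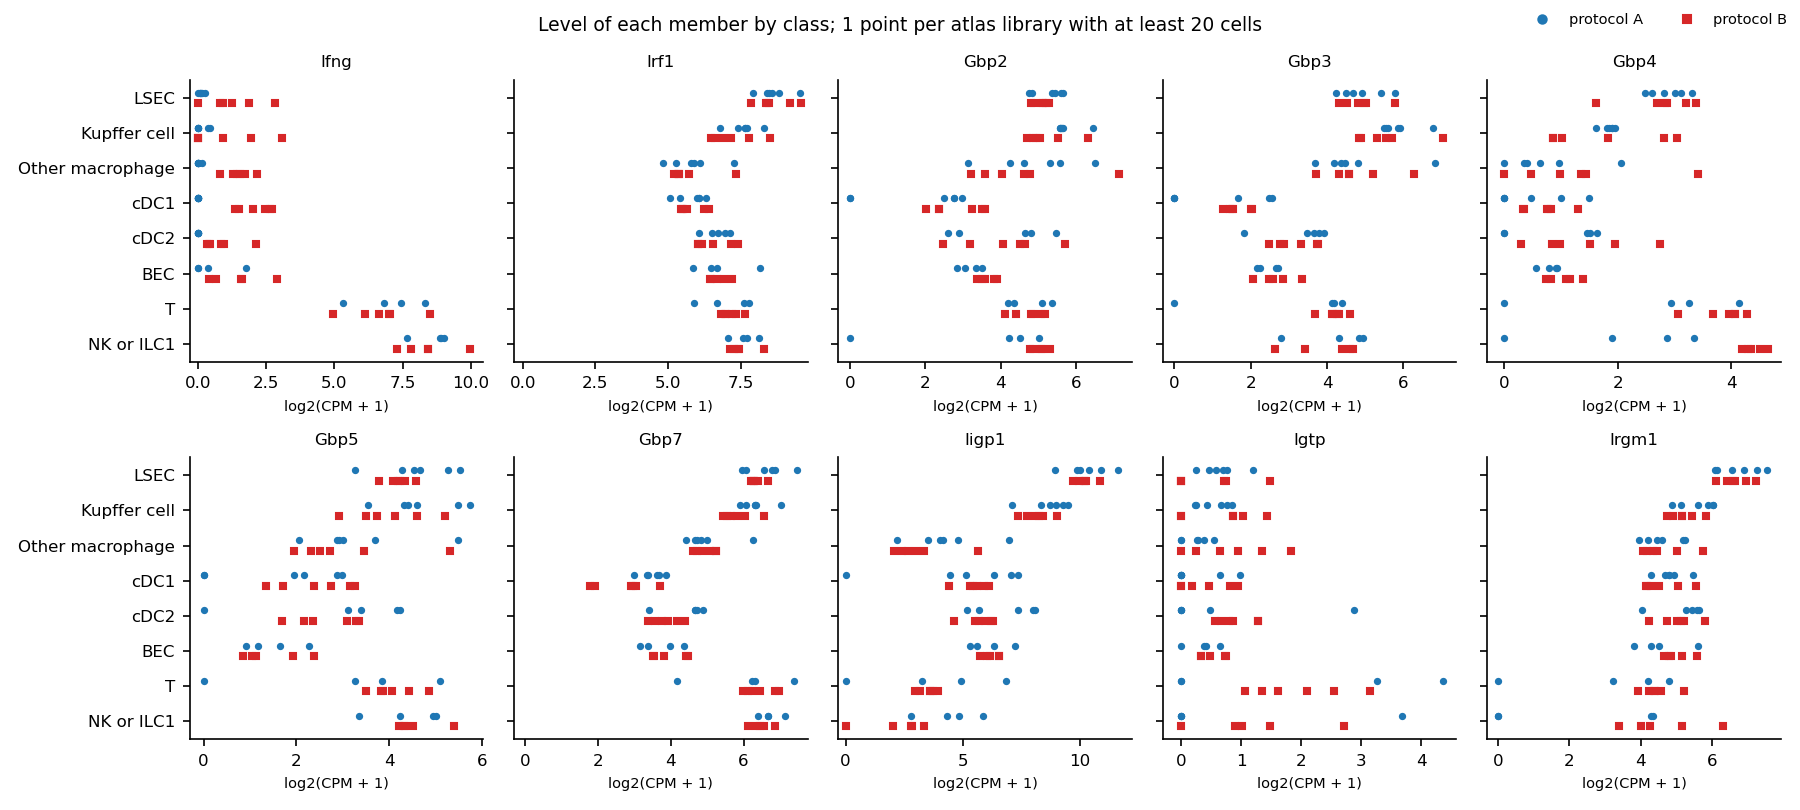
Level of each of the 10 genes on the log2(CPM + 1) scale (horizontal axis) in 8 cell classes, with 1 point per diet-course library with at least 20 cells, circles for protocol A and squares for protocol B. Ifng is far above the other classes in T and NK or ILC1 cells, whereas Iigp1 and Irgm1 are highest in LSEC.

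The largest share of calls against steady state was in other macrophages, the class named by Trem2, Gpnmb, Cx3cr1 and C1q genes. At D0, 422 such cells were measured, against 987 at onset and 5224 in progression. Of the 9 targets, 8 could be tested there; 4 fell from D0 to onset (1.22% of 10874 genes called) and 7 from D0 to progression (6.76% of genes called), and none rose. The 7 include Gbp4, which passed the filter on low counts mainly through D0; of the other 7 tested, 6 fell. Between onset and progression none was called (0.147% of genes called).

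Irf1 in other macrophages was at 153 (D0 A) and 160 CPM (D0 B), at 38.0 (D3 A), 41.0 (D3 B), 67.2 (D5 A) and 39.2 CPM (D5 B), and in progression at 59.2 (D9 A), 40.8 (D9 B), 27.3 (D19 A), 51.2 (D19 B), 53.8 (D25 A) and 35.7 CPM (D25 B). Both D0 libraries lay above all 10 later ones. The log2 fold change was -1.77 ± 0.31 at onset and -1.83 ± 0.28 in progression (edgeR, adjusted p = 0.0124 and 0.00173). Without D0 B the progression change was -1.27 (adjusted p = 0.0525).

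Iigp1 was at 125 (D0 A) and 49.3 CPM (D0 B), at 3.202 to 15.04 CPM in the 4 onset libraries, and in progression at 16.98 (D9 A), 9.14 (D9 B), 3.61 (D19 A), 5.32 (D19 B), 26.4 (D25 A) and 4.36 CPM (D25 B). Both D0 libraries lay above all 10 later ones, and onset and progression overlapped. The log2 fold change was -3.26 ± 0.56 at onset and -2.98 ± 0.48 in progression (edgeR, adjusted p = 0.0124 and 0.00303). The onset change was not called without a protocol term (-3.15, adjusted p = 0.0619).

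The guanylate-binding proteins moved the same way. Gbp3 went from 112 (D0 A) and 76.9 CPM (D0 B) to 19.8 to 36.0 CPM at onset and to 21.0 (D9 A), 12.0 (D9 B), 11.8 (D19 A), 18.8 (D19 B), 17.3 (D25 A) and 22.8 CPM (D25 B). Its log2 fold change was -1.77 ± 0.30 at onset and -2.38 ± 0.27 in progression (edgeR, adjusted p = 0.0112 and 0.000303). The progression call held in 20 of 20 alternatives tried, whereas the onset call was lost in protocol A alone (-1.82, adjusted p = 0.112) and in protocol B alone (-1.66, adjusted p = 0.0805). Among these 20, the higher minimum of cells per library removed no library and so repeated the main fit. Gbp5, which is known to promote inflammasome assembly, went from 44.2 (D0 A) and 39.1 CPM (D0 B) to 4.68 to 10.1 CPM at onset and 2.85 to 12.1 CPM in progression, with log2 fold changes of -2.56 ± 0.49 and -2.91 ± 0.44 (edgeR, adjusted p = 0.0187 and 0.00165). Gbp2 went from 89.95 (D0 A) and 139 CPM (D0 B) to 11.1 to 47.0 CPM at onset and 7.82 to 23.4 CPM in progression; the onset change of -2.04 ± 0.54 did not pass (edgeR, adjusted p = 0.0889) and the progression change of -2.94 ± 0.48 did (adjusted p = 0.00296), though not without D0 B (-1.83, adjusted p = 0.110).

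Gbp7 and Gbp4 were called in progression alone, which does not show that their onset change differs. Gbp7 was at 75.7 (D0 A) and 37.2 CPM (D0 B) and at 23.3 to 36.9 CPM in progression, where D19 B came within 1 CPM of D0 B. Its log2 fold change was -0.89 ± 0.22 (edgeR, adjusted p = 0.0267), and it was not called without D0 A (-0.54, adjusted p = 0.205) or D9 B (-0.85, adjusted p = 0.0536). Gbp4 was at 3.16 (D0 A) and 9.61 CPM (D0 B) and at 0 to 1.73 CPM in progression, with a log2 fold change of -3.43 ± 0.82 (edgeR, adjusted p = 0.0217) that was lost without D0 B (-2.72, adjusted p = 0.348). At onset, Irf1 was not called without D0 B (-1.21, adjusted p = 0.0841) or D3 B (-1.68, adjusted p = 0.0512), nor Gbp5 without D0 B (-1.97, adjusted p = 0.110) or without D3 A, D5 A or D5 B (adjusted p = 0.0563, 0.0613 and 0.0568). In protocol A alone, with 1 library at D0, none of the 4 onset calls and, of the 7 in progression, Gbp3 alone was called. In protocol B alone Gbp4 and Gbp7 were not called in progression. Irgm1 was at 36.3 and 31.4 CPM at D0, at 15.8 to 52.2 CPM at onset and at 14.3 to 20.8 CPM in progression, and its log2 fold change of -0.88 ± 0.37 did not pass (edgeR, adjusted p = 0.176).

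**Figure D3:**
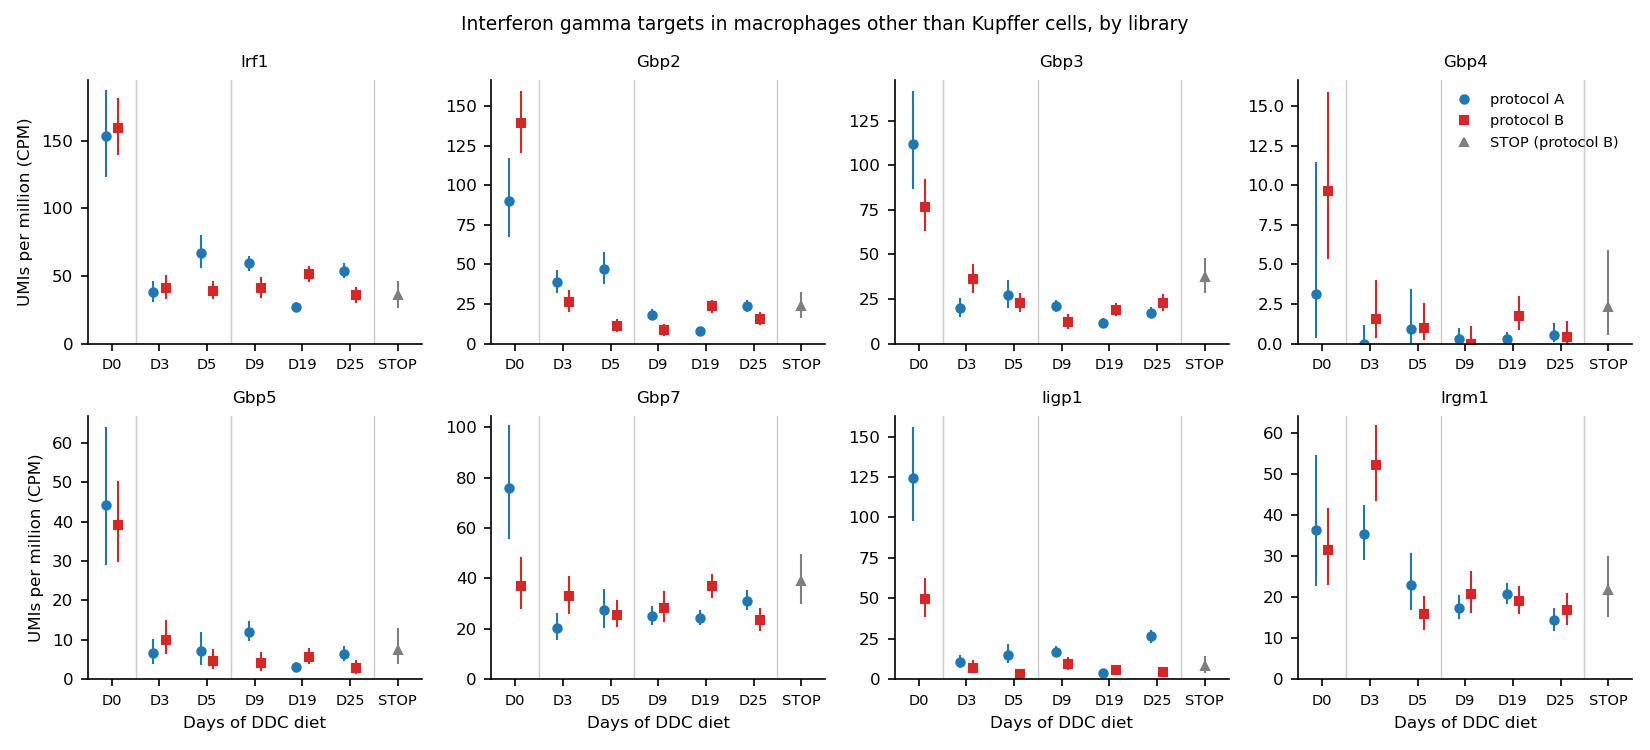
Levels of 8 interferon gamma targets in macrophages other than Kupffer cells, in CPM, by days of DDC diet; each point is 1 library (circles protocol A, squares protocol B, triangle STOP) with its 95% counting interval. Irf1, Gbp2, Gbp3, Gbp4, Gbp5, Gbp7 and Iigp1 were higher in both D0 libraries than in each later one, whereas Irgm1 overlapped at onset.

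The makeup of the other macrophages changed too. A cluster led by Ccl8, Ccl12, Cbr2 and Cd207 held 198 of the 422 cells at D0 and 23 of 5224 in progression. The larger cluster, led by Gpnmb, Ms4a7 and Trem2, held the other 224 cells at D0, of which 38 were in D0 A. In the larger cluster alone the changes were of the same direction and similar or larger size: in progression -3.59 for Gbp2, -3.62 for Gbp5, -2.55 for Gbp3, -3.27 for Iigp1, -1.80 for Irf1 and -1.05 for Gbp7 on the log2 scale (edgeR, adjusted p from 0.000606 to 0.0224). Gbp4 was not tested there. Libraries also differed in depth per cell, with a median of 5115 (D0 A) and 4821 UMIs (D0 B) against 5794 to 19061 later. With at least 3000 UMIs per cell 6 of the 7 were still called in progression, and Gbp7 was not (-0.75, adjusted p = 0.0565). The 8 markers of T and NK cell RNA summed to 1.58 and 58.3 CPM at D0 and 2.54 to 77.2 CPM in progression, with 1 and 8 of the 8 detected at D0 and 7 or 8 in progression. Which part of the change belongs to a shift among kinds of macrophages was not tested beyond this.

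In Kupffer cells, the resident macrophages of the sinusoid, 1 of 8 tested targets was called. Gbp3 was at 108 (D0 A) and 130 CPM (D0 B), at 59.5 (D3 A), 50.8 (D3 B), 56.6 (D5 A) and 28.7 CPM (D5 B) at onset, and at 45.9 (D9 A), 45.4 (D9 B), 43.8 (D19 A), 27.4 (D19 B), 47.6 (D25 A) and 38.6 CPM (D25 B) in progression. D0 lay above all later libraries. The log2 fold change in progression was -1.24 ± 0.26 (edgeR, adjusted p = 0.0117, with 6.26% of 10975 genes called), and at onset -1.00 ± 0.28 (adjusted p = 0.0575; 3.32% of genes called). It was not called without D0 A (-1.76, adjusted p = 0.143), without D0 B (-1.02, adjusted p = 0.0519), with at least 3000 UMIs per cell (-1.01, adjusted p = 0.06), with at least 50 cells (-0.96, adjusted p = 0.0775), in protocol A alone (-1.01, adjusted p = 0.115) or in protocol B alone (-1.82, adjusted p = 0.229). Gbp2 and Gbp7 fell short of the threshold in progression, at -0.78 ± 0.24 and -0.73 ± 0.22 (edgeR, adjusted p = 0.0630 and 0.0542). Iigp1, at 623 (D0 A) and 304 CPM (D0 B), was at 136 to 520 CPM in progression, and the groups overlapped. No target was called between onset and progression (0.0547% of genes called), where Irgm1 had the smallest p (log2 fold change -0.64 ± 0.18; edgeR, adjusted p = 0.264). Kupffer cells too fell into a pair of clusters whose weights changed, with 406 of 485 cells in one at D0 and 2238 of 3923 in the other in progression. Gbp3 was at 118 (D0 A) and 135 CPM (D0 B) in the first and at 31.1 to 59.7 CPM in progression, so that the difference was there within a cluster as well. Iigp1 in that cluster was at 414 (D0 A) and 215 CPM (D0 B) and at 12.1 to 67.8 CPM in progression, whereas in the other cluster it was at 1606 CPM in D0 A and 234 to 868 CPM in progression. These cluster levels were not tested.

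LSEC line the sinusoids and had the highest Iigp1, Irf1 and Irgm1 of the 8 classes fitted. None of their 8 tested targets was called at onset (0.0156% of 12789 genes called), in progression (0.844% of genes called) or between onset and progression (0.0391% of genes called). In edgeR's test, 0, 5 and 2 of the 8 had an unadjusted p under 0.05 in these contrasts, as had 1008, 1837 and 956 of the 12789 genes. In progression 7 of 8 targets had a negative log2 fold change, with a median of -0.70 against -0.02 over all genes. Irf1 was at 740 (D0 A) and 588 CPM (D0 B), at 342 to 447 CPM at onset, and at 335 (D9 A), 230 (D9 B), 243 (D19 A), 330 (D19 B), 351 (D25 A) and 759 CPM (D25 B) in progression. D25 B alone lay above D0. Its log2 fold change was -0.76 ± 0.35 (edgeR, adjusted p = 0.343).

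Iigp1 in LSEC went opposite ways in the protocols. In protocol A it was at 3156 CPM at D0 and at 1343 (D3), 1911 (D5), 928 (D9), 481 (D19) and 1009 CPM (D25) afterwards. In protocol B it was at 818 CPM at D0 and at 1144 (D3), 985 (D5), 1165 (D9), 1214 (D19) and 1857 CPM (D25). All later protocol A libraries lay below D0 A and all later protocol B libraries above D0 B, a difference that was not tested. The cells differed as well: 2396 of 3053 LSEC in D0 A lay in a cluster with hepatocyte RNA (Serpina1e and Mup genes among its leading genes), and 400 of 473 in D0 B in a cluster of low depth led by Cplx2 and Selenop. Without the cluster with hepatocyte RNA, the log2 fold change of Iigp1 in progression went from -0.68 to -0.18 and that of Irf1 from -0.76 to -0.36, with no call either way.

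Within the LSEC clusters, which were made without the 10 genes and the listed genes of the pathway, D0 and progression were set side by side as levels, without a test. Of the 3 clusters that reached 20 cells in both D0 libraries, the one led by Cyp4b1, Oit3 and Stab2 had 716 and 784 CPM of Iigp1 at D0 and 362 to 591 CPM in progression, and 168 and 337 CPM of Irf1 against 82.0 to 131 CPM. The low-depth cluster had 726 (D0 A) and 731 CPM (D0 B) of Iigp1 and 61.6 to 339 CPM in progression, and 270 (D0 A) and 551 CPM (D0 B) of Irf1 against 42.1 to 173 CPM. In both clusters D0 lay above progression for Iigp1 and Irf1. The cluster led by Adamts4, Art3 and Rasd1, which has Iigp1 and Cxcl9 among its leading genes, had 3503 (D0 A) and 1456 CPM (D0 B) of Iigp1 and 1320 to 2741 CPM in progression, which overlapped, as did its Irf1, at 716 and 971 CPM against 528 to 952 CPM. Irgm1 was at 235 and 277 CPM at D0 in that cluster and at 59.5 to 190 CPM in progression, without overlap. In the low-depth cluster Irgm1 overlapped, at 51.4 and 109 CPM against 24.3 to 86.7 CPM, and in the cluster led by Cyp4b1 it did not, at 84.2 and 92.9 CPM against 47.7 to 63.0 CPM. In the cluster led by Ackr3, Plppr5 and Wnt9b, with 1 library at D0, Iigp1 was at 2609 CPM there and at 498 to 1241 CPM in progression, Irf1 at 772 against 240.3 to 423 CPM and Irgm1 at 292 against 53.0 to 97.0 CPM. The cluster with hepatocyte RNA was at 3446 CPM of Iigp1 in its 1 D0 library and at 2315 CPM in 1 onset library, and a further pair of clusters had no D0 library. How much of the class's values lies with makeup was not tested.

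Dendritic cells were read as cDC2 and cDC1. In cDC2, which present antigen to CD4 T cells, Gbp2 was at 51.7 CPM in D0 B, the only D0 library with at least 20 such cells, at 26.8 (D3 A), 21.7 (D3 B), 24.2 (D5 A) and 8.14 CPM (D5 B) at onset, and at 43.4 (D9 A), 4.58 (D9 B), 6.41 (D19 A), 24.1 (D19 B), 5.07 (D25 A) and 15.7 CPM (D25 B) in progression. D0 B lay above each of them, D9 A being nearest. Its log2 fold change was -2.32 ± 0.66 at onset and -2.26 ± 0.62 in progression (edgeR, adjusted p = 0.0444 and 0.0252, with 6.86% and 12.8% of 12542 genes called). Gbp4 was at 5.72 CPM in D0 B and 0 to 1.84 CPM in progression, with a log2 fold change of -2.78 ± 0.82 (edgeR, adjusted p = 0.0346), on 24 UMIs in D0 B and 0 to 16 in each later library. These calls rest on 1 D0 library, and the makeup differed, with 737 of 830 cDC2 at D0 in a cluster that held 20 of 1841 in progression. In that cluster Gbp2 was at 51.7 CPM in D0 B, 140 CPM in D3 A and 0 CPM in D5 B, the libraries with at least 20 of its cells. In the cluster led by Ccl22, H2-Eb2 and Mreg it was at 17.1 CPM in D0 B (3 UMIs) and at 11.1 to 87.9 CPM later, so that D0 B lay within the later range there. How much of the calls lies with makeup was not tested. In protocol B alone, the protocol of that library, edgeR called none of the 3: Gbp2 was at -2.32 at onset and -2.20 in progression and Gbp4 at -2.63 (adjusted p = 0.116, 0.0650 and 0.110). Without a protocol term none was called either (adjusted p = 0.127, 0.0914 and 0.0530). DESeq2 did not call Gbp2 (adjusted p = 0.190 at onset and 0.147 in progression). In edgeR, Gbp2 at onset was not called without D3 A, D5 A, D5 B or D9 A (adjusted p = 0.0593, 0.0771, 0.0892 and 0.0687) or with cells that hold RNA of another lineage left out (adjusted p = 0.0516), nor Gbp4 without D5 A or D9 B (adjusted p = 0.0583 and 0.079). Between onset and progression no target was called (0% of genes).

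Iigp1 had positive log2 fold changes against D0 in both dendritic cells, none of which passed. In cDC2 it was at 23.8 CPM in D0 B and at 35.2 to 268 CPM in the 10 later libraries, all above it. Most of its UMIs, 65 of 100 in D0 B and 195 of 216 in D19 B for instance, lay in the cluster led by Ccl22, H2-Eb2 and Mreg, which held 32 of 830 cDC2 at D0, 436 of 2547 at onset and 179 of 1841 in progression. Within that cluster Iigp1 was at 370 CPM in D0 B (30 cells) and at 333 to 620 CPM in the 8 later libraries with at least 20 of its cells, and in the other clusters at 0 to 21.7 CPM. D0 B lay within the later range inside it. How much of the class's values lies with makeup was not tested. In cDC1, which present antigen to CD8 T cells, it was at 34.2 (D0 A) and 20.3 CPM (D0 B), at 133 (D3 A), 38.0 (D3 B), 160 (D5 A) and 42.6 CPM (D5 B) at onset and at 0 to 78.1 CPM in progression. The onset change was 1.39 ± 0.67 in cDC2 and 1.46 ± 0.65 in cDC1 (edgeR, adjusted p = 0.202 and 0.317). Gbp7 had positive values at onset as well, 0.41 ± 0.40 in cDC2 and 0.67 ± 0.55 in cDC1, and Gbp3 in cDC1 was at 0.36 ± 0.72 (edgeR, adjusted p = 0.546, 0.610 and 0.862). No target of the 7 tested in cDC1 was called in either contrast with D0 (0.465% and 4.55% of 11187 genes called), nor between onset and progression (0% of genes). At an unadjusted p under 0.05 edgeR gave 1 of 7 at onset and none in the other contrasts. Of all 11187 genes it gave 1601 at onset, 2598 in progression and 663 between onset and progression. Within the cDC1 cluster led by Xcr1, Gpr141b and Itgae, Iigp1 was at 118 CPM in D0 B (29 cells) and at 234 to 621 CPM in the 6 later libraries with at least 20 of its cells, without a test. In cDC1 too, 856 of 1217 cells at D0 lay in a cluster that held 8 of 1448 in progression.

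BEC, the lining of the bile ducts that DDC injures, had 1 call. Irf1 was at 288 CPM in D0 A, the only D0 library with at least 20 BEC, and at 103 (D9 A), 86.1 (D9 B), 56.9 (D19 A), 146 (D19 B), 88.2 (D25 A) and 102 CPM (D25 B) in progression. All 6 lay below D0 A. The log2 fold change was -1.54 ± 0.34 (edgeR, adjusted p = 0.0364, with 4.57% of 15996 genes called). It was not called in protocol A alone, the protocol of D0 A (-1.61, adjusted p = 0.0788), nor without D25 A or D25 B (adjusted p = 0.0838 and 0.0550). Iigp1 went from 148 to 38.4 to 91.3 CPM and Irgm1 from 47.3 to 12.9 to 34.2 CPM, with log2 fold changes of -1.18 ± 0.39 and -1.21 ± 0.34 that did not pass (edgeR, adjusted p = 0.103 and 0.0685). No gene at all was called at onset or between onset and progression (0% of genes in both). Hepatocyte RNA (5 of 5 markers) summed to 6127 CPM in D0 A and 1134 to 1857 CPM in progression, and its part in the result was not tested.

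**Figure D4:**
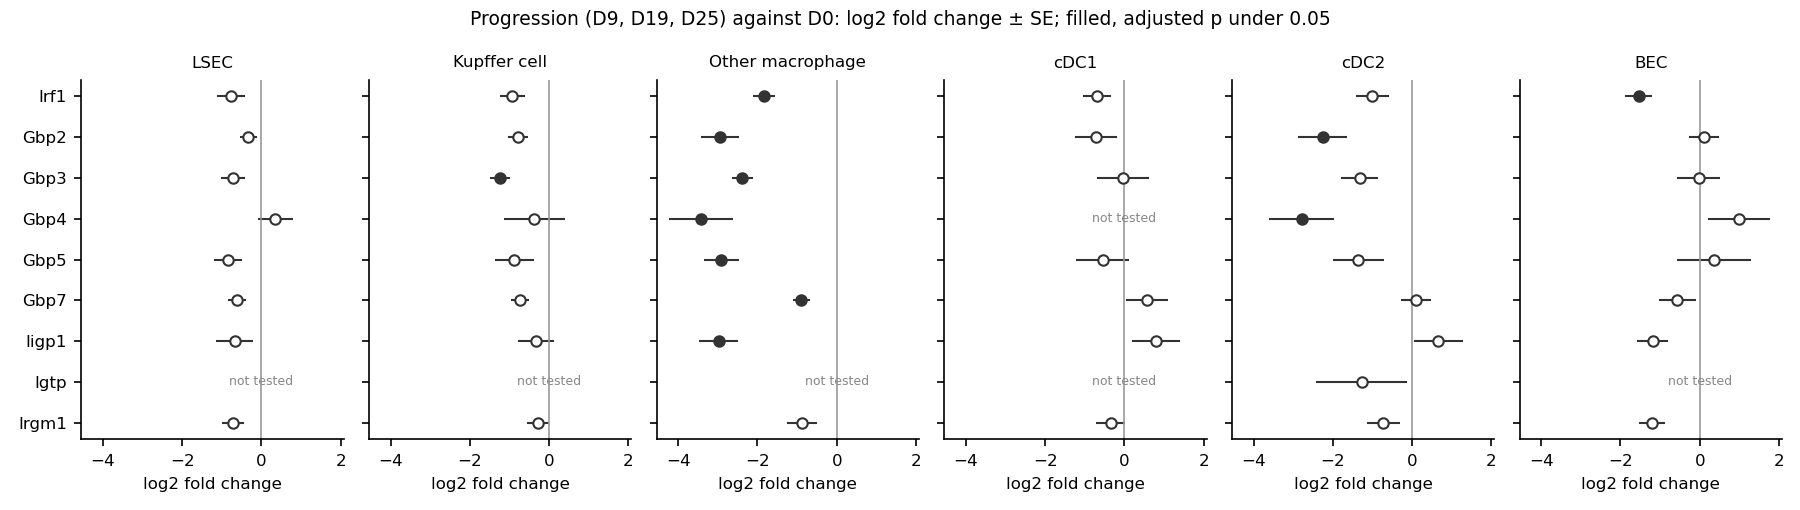
Log2 fold change of progression (D9, D19 and D25) against D0 for the 9 targets in 6 classes, with bars of 1 SE; filled points have an adjusted p under 0.05 in edgeR's quasi-likelihood test, and genes removed by the filter on low counts read not tested. Filled points are all negative, and 7 of the 11 are in other macrophages, Gbp4 among them, which passed that filter mainly through D0.

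Over all 56 pairs of gene and class, Ifng included, 50 could be tested. None rose in any of the 3 contrasts. The genes were chosen with earlier results of these data known, so the shares given here are no test of them as a set. At onset 5 fell, where 0.85% of all 91145 pairs of a gene and a class fell in the same fits, and in progression 12 fell, against 3.04% of all pairs; the 12 include Gbp4 in other macrophages and in cDC2. None differed between onset and progression, where 0.0165% of all pairs fell and 7 of the 50 had an unadjusted p under 0.05 in edgeR's test. As a share of a class, all genes with such a p ran from 478 of 10812 in T cells to 1143 of 10874 in other macrophages. DESeq2 called falls in 9 pairs at onset and 14 in progression (2.06% and 4.47% of all pairs) and none between onset and progression. Without D0 B, 5 of 42 fell in progression (1.52% of all pairs), in protocol A alone 1 of 38 (0.525%) and in protocol B alone 7 of 40 (3.6%).

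Genes of 6 lists from the same pathway were read in the same fits. The share of all tested genes called in progression differed between classes, from 0.285% in NK or ILC1 cells to 12.8% in cDC2, and over all classes 3.04% of the pairs fell and 2.15% rose. The counts below stand against these shares. The lists, like the members, were chosen with earlier results of these data known. A gene that is high at D0 alone can pass the filter on low counts, and which listed genes did so is not shown. In these fits cDC2 and BEC had 1 D0 library each, and the makeup of classes changed as described above. The alternatives were read for the members and not for the listed genes. For 14 other interferon-inducible GTPases, 53 pairs of gene and class were tested and 12 fell in progression against D0. Gbp2b fell in other macrophages (log2 fold change -7.51 ± 1.03), Kupffer cells (-4.71 ± 0.71) and cDC2 (-5.59 ± 1.25), and Gbp8 in the same classes (-2.74 ± 0.33, -2.08 ± 0.31 and -3.73 ± 0.51) and in T cells (-1.27 ± 0.34). Irgm2 fell in BEC (-1.74 ± 0.37), Gm12185 in other macrophages (-4.00 ± 0.89) and Tgtp2 in cDC2 (-3.09 ± 0.94).

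Of the receptor and its signalling chain, Socs1, the feedback inhibitor of the receptor's kinases, fell in progression in other macrophages (-2.57 ± 0.49), cDC1 (-1.68 ± 0.37) and cDC2 (-1.77 ± 0.32). Ifngr2, a chain of the receptor, rose in BEC (1.24 ± 0.23).

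Upstream of Ifng, 52 pairs of inducers and their receptors held 6 falls and 3 rises. Il15, which sustains NK cells, fell in Kupffer cells (-1.11 ± 0.26), other macrophages (-1.36 ± 0.29), cDC1 (-2.63 ± 0.59) and cDC2 (-3.21 ± 0.67), Il27 in other macrophages (-2.79 ± 0.55) and Il18 in cDC2 (-1.44 ± 0.33). The receptor chains of interleukin-18 rose in T cells, Il18rap by 1.72 ± 0.38 and Il18r1 by 1.44 ± 0.35, and Il18rap rose in cDC2 (3.99 ± 0.77).

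Among chemokines and enzymes, 9 of 48 pairs fell. Cxcl9, which draws T cells, fell in other macrophages (-5.89 ± 1.02), cDC1 (-2.20 ± 0.58) and cDC2 (-3.60 ± 0.68), and Cxcl11 in cDC1 (-4.58 ± 0.91) and cDC2 (-5.27 ± 0.71). Cxcl10, a ligand of the same receptor, fell in cDC2 (-2.86 ± 0.68), and Serpina3g and Batf2 fell in other macrophages (-3.06 ± 0.54 and -2.41 ± 0.43). Antigen presentation held 18 falls in 116 pairs, 9 of them in other macrophages with Cd74 (-2.27 ± 0.48), H2-Aa (-1.73 ± 0.45) and H2-Eb1 (-1.73 ± 0.46) in front. Psmb8 and Psmb9, subunits of the immunoproteasome, fell in cDC2 (-2.72 ± 0.39 and -1.85 ± 0.31) together with Cd74 (-1.77 ± 0.25), Psmb9 in cDC1 (-1.17 ± 0.31) and Psmb8 in T cells (-1.90 ± 0.45), while Kupffer cells had H2-K1 (-1.15 ± 0.26) and Tap1 (-0.88 ± 0.23).

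Genes that type I interferons induce held 28 falls in 138 pairs. Isg15 fell in T cells (-2.18 ± 0.36), other macrophages (-2.40 ± 0.50), cDC1 (-1.78 ± 0.49) and cDC2 (-2.71 ± 0.55). Irf7, a transcription factor of the type I response, fell in T cells (-1.69 ± 0.34), other macrophages (-1.81 ± 0.34) and cDC1 (-1.68 ± 0.34). Of the oligoadenylate synthetases, which sense double-stranded RNA, Oas1a fell in T cells (-2.98 ± 0.65) and cDC2 (-2.88 ± 0.51), and Oas2 and Oas3 in Kupffer cells (-2.05 ± 0.36 and -1.48 ± 0.35). Ifi44 fell in Kupffer cells (-1.73 ± 0.38), other macrophages (-3.17 ± 0.51) and BEC (-2.08 ± 0.47), Ifit1 in BEC (-2.24 ± 0.42), Usp18 in cDC2 (-2.84 ± 0.72) and Xaf1 in cDC1 (-1.40 ± 0.38). At onset these 6 lists held 20 falls and no rise, where 0.85% of all pairs fell, and between onset and progression no call.

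Whether targets followed Ifng from library to library was read from 54 relations between Ifng in T and NK or ILC1 cells together and each target in each class, on the log2(CPM + 1) scale. The source level holds makeup as well as level per cell, since NK or ILC1 cells were 132 of its 178 cells in D0 A and 41 of 59 in D5 A but 434 of 1901 in D0 B and 10 of 332 in D3 B. Pearson's r was positive in 50 of them, and 18 had a permutation p under 0.05 before adjustment. After Benjamini-Hochberg adjustment none passed by Pearson's r (smallest adjusted p = 0.0687) and 1 by Spearman's rho. That was Gbp2 in cDC2 (11 libraries, rho = 0.882, permutation test, adjusted p = 0.0329; r = 0.820, adjusted p = 0.0687). Its r was 0.705 without the 2 libraries farthest from the median of Ifng and 0.940 within the 6 libraries of protocol B. Gbp2 in other macrophages had r = 0.735 over 12 libraries (permutation test, adjusted p = 0.0687), 0.890 without the 2 libraries farthest from the median of Ifng, 0.591 within protocol A and 0.947 within protocol B. In LSEC the protocols disagreed, with r = 0.860 in protocol A and -0.239 in protocol B for Gbp2. D0 B and D0 A are at the high end of Ifng, and with T cells alone as the source 3 relations passed.

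Across 87 sums of class and library, the genes whose pattern was most like that of Ifng were Fasl and Gm19585 (r = 0.97 both) and Txk, Ctsw and Gpr174 (r = 0.96 each) among 10059 genes. For the mean of the 9 targets they were Parp14 (r = 0.79), Pitpnc1 (0.79), Cflar (0.78), Herc2 (0.77) and Nod1 (0.77) among 6172 genes. The sums share libraries and depth, and no p is given.

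The STOP library was set beside D19 B, the diet library of the same protocol nearest in time on the diet. There is 1 library of each, so the intervals cover counting error only, with no replicate check and no test. Of the 56 pairs, 23 were higher in STOP with an interval of the ratio that excluded 1 and 4 were lower. Calls depended in part on scaling to CPM. With UMIs per cell instead, Ifng in NK or ILC1 cells (0.856), Irf1 in LSEC (0.911) and Irgm1 in cDC2 (0.702) were lower too. Irf1 (1.27), Gbp4 (7.65) and Irgm1 (1.40) in cDC1 and Gbp2 in BEC (1.25) were then higher. The share of all genes whose interval excluded 1 was 26.8% in LSEC, 19.9% in Kupffer cells, 20.7% in other macrophages, 28.4% in cDC1, 25.5% in cDC2, 36.3% in BEC, 30.9% in T cells and 19.4% in NK or ILC1 cells. Higher and lower genes numbered 3161 and 1779 in LSEC, 2202 and 1017 in Kupffer cells, 1970 and 1597 in other macrophages and 2692 and 2876 in cDC1. They numbered 2780 and 1569 in cDC2, 4026 and 4181 in BEC, 3300 and 2744 in T cells and 1716 and 1321 in NK or ILC1 cells. In 20 of the 56 pairs STOP lay above all diet-course libraries of protocol B that reached 20 cells of the class, and in 2 below. The share of all genes outside that range was not counted, so these counts are no result about the targets.

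Iigp1 was higher in STOP in 5 of 6 classes. It was at 2064 CPM against 1214 in LSEC (ratio 1.70, 95% interval 1.63 to 1.77), 476 against 161 in Kupffer cells (2.95, 2.60 to 3.36), 217 against 68.0 in cDC1 (3.19, 2.80 to 3.65), 97.0 against 44.2 in cDC2 (2.20, 1.84 to 2.63) and 275 against 91.3 in BEC (3.01, 2.80 to 3.24). In cDC2 the cluster that holds most of the Iigp1 was at 439 CPM in STOP (51 of 386 cells) and 433 CPM in D19 B (34 of 585 cells). In cDC1 a cluster led by Xcr1, Gpr141b and Itgae was at 502 CPM in STOP (244 of 1108 cells) and 322 CPM in D19 B (39 of 424 cells), and a further STOP cluster of 80 cells at 439 CPM. In other macrophages it was at 8.02 against 5.32 CPM, with an interval of 0.758 to 2.83. In LSEC, cDC1, cDC2 and BEC the STOP value exceeded every protocol B library of the diet course with at least 20 cells of the class.

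Gbp3 and Gbp7 followed. Gbp3 was higher in LSEC (58.6 against 18.9 CPM, ratio 3.11), Kupffer cells (91.7 against 27.4, 3.35), other macrophages (37.3 against 18.8, 1.99), cDC1 (8.84 against 3.05, 2.89) and BEC (13.3 against 6.14, 2.17). Gbp7 was higher in LSEC, Kupffer cells, cDC1 and BEC, with ratios from 1.75 to 2.42. Irgm1 was higher in LSEC (2.03), Kupffer cells (2.20) and BEC (1.41).

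Irf1 did not follow them. It was at 330 CPM in both libraries in LSEC (ratio 1.002, 95% interval 0.919 to 1.09) and at 144 against 146 CPM in BEC (0.985, 0.919 to 1.06), higher in Kupffer cells (1.61) and lower in other macrophages (0.694, 0.522 to 0.909) and cDC2 (0.399, 0.341 to 0.465). In cDC2, Gbp2 (0.444, 0.291 to 0.661) and Gbp5 (0.442, 0.196 to 0.907) were lower as well, whereas Gbp2 was higher in LSEC (1.83, 1.40 to 2.42) and Kupffer cells (2.43, 1.76 to 3.38) and Gbp5 in Kupffer cells (3.14, 1.64 to 6.22) and BEC (1.87, 1.19 to 2.99). In the other target classes the intervals of both held 1. D19 B had the highest cDC2 Irf1 of the 6 protocol B libraries of the diet course, at 171 CPM. It had the lowest Iigp1, Irf1, Gbp3, Gbp5 and Irgm1 of them in Kupffer cells. In LSEC it had the lowest Gbp3, Gbp7 and Irgm1, whereas in cDC1 it had the highest Iigp1 and Gbp7. STOP lay within the range of these libraries for Iigp1, Irf1, Gbp2, Gbp3 and Gbp5 in Kupffer cells and for Irgm1 in LSEC.

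Ifng in T cells was at 273 CPM in STOP against 126 in D19 B (ratio 2.16, 95% interval 2.01 to 2.34), below the 364 CPM of D0 B. CD4 T-like cells were at 541 against 205 CPM and CD8 T-like cells at 209 against 90.3 CPM, whereas NK or ILC1 cells were at 320 against 344 CPM, with an interval of the ratio of 0.834 to 1.04. Markers of T and NK cell RNA were also higher in other classes of STOP, at 317 CPM in cDC1 against at most 165 in the diet course, at 290 CPM in Kupffer cells against at most 125 and at 416 CPM in BEC against at most 173, all 8 detected. Their part in the higher levels was not tested.

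**Figure D5:**
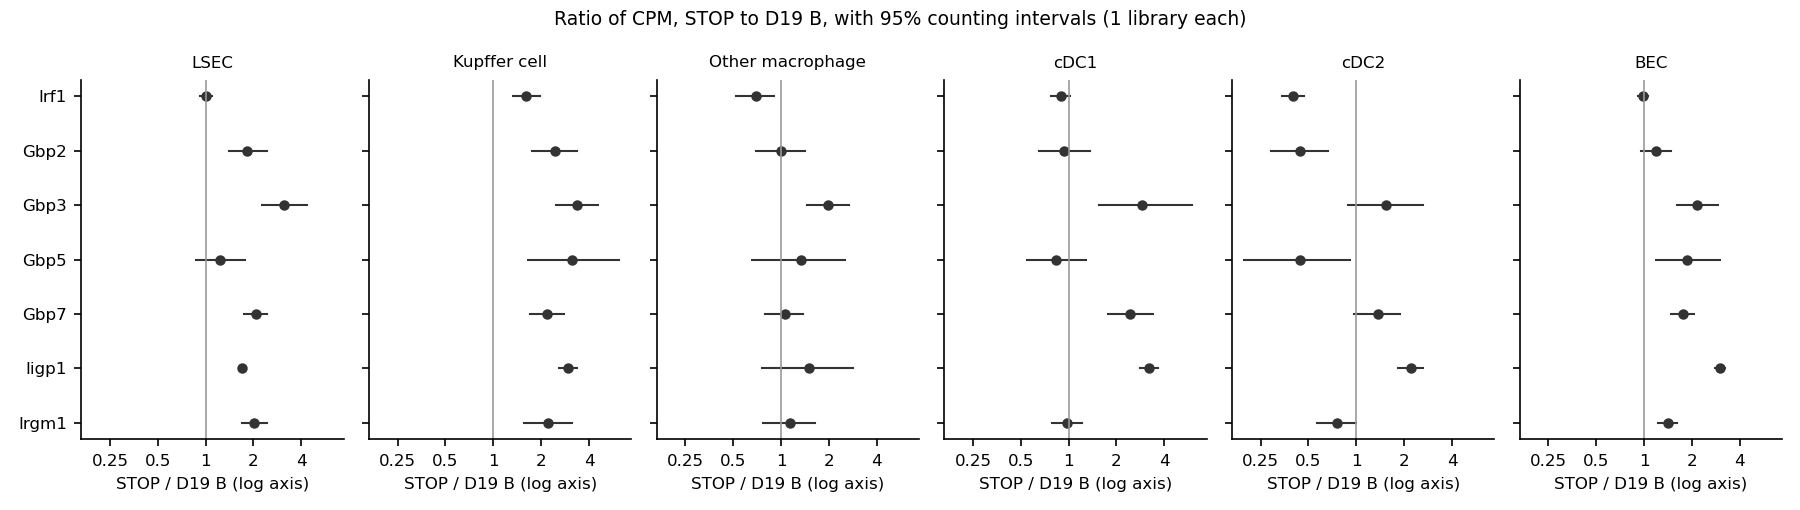
Ratio of the level (CPM) in the STOP library to that in D19 B on a log axis, for 7 targets in 6 classes; points are ratios of 1 library each and bars 95% counting intervals, with a line at 1. The interval of Iigp1 lies right of 1 in each class except other macrophages, where it is 0.758 to 2.83, and Irf1 lies left of 1 in cDC2 at 0.399.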

How the data were processed

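Cells of 13 mouse liver libraries (10x 3′ v3.1 single-cell RNA-seq) were read from the deposited UMI counts, raw whole numbers per gene and barcode that the authors made with kallisto; the genome is GRCm38 per the labels' processing notes, and the kallisto version is not given in the sources used here. Pseudoalignment resolves reads by compatible transcripts, so that near-identical stretches of the Gbp and Irg genes may be counted for a paralog or dropped, and exon bases are shared by Ifng and Gm49751 (25.9% of its exon bases), Gbp7 and Gm43802 (11.3%), Igtp and Irgm2 (8.01%) and Gbp4 and its neighbours (under 1%). Barcodes with at least 1500 UMIs were kept. Cells were clustered on 2000 variable genes (scaled to 10000, log with pseudocount 1, 40 principal components, 30 within T and NK or dendritic cells, 25 neighbours, Leiden resolution 1.5 and 1.0) without the 10 members, the 77 genes of 6 pathway lists, mitochondrial, ribosomal and predicted genes. Clusters were named from fixed markers by a rule set after the clusters were seen, and 4 T and NK clusters stayed unnamed. Doublets were not removed.

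UMIs were summed per class and library (at least 20 cells) and tested with edgeR's quasi-likelihood test (TMM, filterByExpr, stage plus protocol, Benjamini-Hochberg adjustment over all genes of a class at 0.05), 1 fit per class; SE is the log2 fold change over the root of F. Classes were compared within libraries by exact sign flips, and relations by permutation (100000 resamples, exact below 10 libraries). STOP and D19 B, 1 library each, were compared by counting intervals (95%). Shares of cells were thinned to 1500 UMIs. The members and lists were chosen with earlier results of these data known. Named were all 10 members, for the lists up to 3 genes of largest change per class among those called in progression (1 gene and the progression count of its list are not reported here), with those at onset given as counts, and the 5 genes of most similar pattern. The alternatives were DESeq2, no filter, 3000 UMIs, 50 cells, cells with RNA of another lineage left out, no protocol term, each protocol alone, each library left out, and 3 that were chosen after seeing the data. The fits were also run on simulated counts, and the outcome is not given here. The simulation held no effect of protocol or cell makeup, so it is no check of the calls against D0. Versions were Python 3.11.15, numpy 2.4.6, scipy 1.17.1, igraph 0.11.9, R 4.3.3, edgeR 4.0.16, limma 3.58.1 and DESeq2 1.42.0.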

Additional observations from a re-analysis of the deposited data

Results flagged for a closer look

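Of 101 groups of 4 or 6 libraries checked for a library far from the others, 8 held one, where chance gives about 1 in 20. In progression, LSEC of D25 B had 759 CPM of Irf1 (next library 351), 149 CPM of Irgm1 (next 93.3) and 2.07 CPM of Gbp4 (3 UMIs; next 6.00). Other macrophages of D5 A had 67.2 CPM of Irf1 at onset (next 41.0), and those of D19 B 1.73 CPM of Gbp4 in progression (13 UMIs; next 0.539). In progression cDC2, D19 B had 171 CPM of Irf1 (next 103), D9 A 160 CPM of Iigp1 (next 77.1) and D19 A 6.41 CPM of Igtp (2 UMIs; next 0.818).

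Iigp1 in LSEC lay below D0 A in all 5 later libraries of protocol A and above D0 B in all 5 of protocol B, and the log2 ratio of the mean of the later protocol A libraries to D0 A was -1.48. The difference between the protocols was not tested.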

How the results depend on the processing

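For the 17 calls against D0 (5 at onset and 12 in progression), no alternative turned the direction; over calls and alternatives, 286 values were still called and 55 were not. Some of the 286 repeat the main fit and are no check of it. In BEC, T cells and cDC2, some libraries left out had too few cells to be in the fit at all. In other macrophages and BEC, the higher minimum of cells per library removed no library from the fit. Of the pairs not called, 17 of 45 at onset and 13 of 38 in progression changed sign under at least 1 alternative, and 13 and 10 were called under at least 1. Ifng in NK or ILC1 cells at onset, at -0.77, became 0.19 with at least 3000 UMIs per cell, 0.84 with cells that hold RNA of another lineage left out and 0.31 in protocol A alone, and lay between -1.81 and 0.10 with a library left out. With cells that hold RNA of another lineage left out, Ifng in NK or ILC1 cells exceeded T cells in 4 of 5 libraries, by a mean of 1.28 (exact sign-flip permutation p = 0.1875, where the smallest possible is 0.0625). Neighbouring classes past the threshold went from 15 to 7 with at least 3000 UMIs per cell, relations from 0 to 3 with T cells alone as the source, and the median share of T cells with Ifng from 10.8% to 19.9% without thinning. The 5 calls at onset became 9 with DESeq2, 16 without a filter on low counts (2 rose and 14 fell), 3 without a protocol term and 0 in protocol A alone, and lay between 3 and 7 with a library left out, with 3 without D0 B, D5 A or D5 B. The 12 calls in progression became 1 in protocol A alone and 7 in protocol B alone, and lay between 5 and 15 with a library left out, with 5 without D0 B. Between onset and progression the 0 calls became 3 without a filter and 1 with at least 3000 UMIs, and stayed at 0 with any library left out. The causes were not tested. For most of these settings the share of all genes called is not given. These counts show how calls depend on the processing and are no result about the members. Between stages, no paired analysis was possible because the labels give no replicate numbers that could pair libraries of different days beyond the protocol, which was already a term of each fit; classes were compared within libraries. Depth limits Igtp, Gbp4 and the D0 libraries most.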
